A study of Homo sapiens with 12 samples.

Results

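The MYC, MAX and MLX network is a set of basic helix-loop-helix leucine zipper transcription factors that pair with one another on DNA. It was followed here through 10 genes, taken by gene symbol from the deposited expression table: MYC, MAX, MXD1, MXD3, MXD4, MXI1, MLX, MLXIP, MNT and MGA. Each symbol had 1 entry among the 63187 genes of the table, and all 10 were among the 9270 genes expressed highly enough to be tested. The cells were of the MDA-MB-231 line (ATCC HTB-26), established from a human breast adenocarcinoma and basal-like and mesenchymal in character, first grown in high-glucose salt solution with 10% serum and penicillin-streptomycin. They were then kept for 36 h, with 3% serum throughout, in 1 of 4 media, with 3 RNA libraries each (replicates A, B and C). Both nutrients were present in full medium, glucose at 25 mM and glutamine at 4 mM; glucose-only medium lacked the glutamine, glutamine-only medium lacked the glucose, and deficient medium lacked both. Total RNA was treated with DNase, depleted of ribosomal RNA and made into stranded libraries. Whether replicates are separate cultures is not stated, so the p-values below measure only the spread between these libraries, which may be technical.

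MYC pairs with MAX and activates genes of growth, ribosome production and metabolism, binding preferentially to the E-box, a short palindromic DNA element. The MXD proteins (MXD1, MXD3, MXD4 and MXI1) and MNT also pair with MAX, bind the same element and recruit SIN3 and histone deacetylases, so they compete with MYC for both partner and DNA. MGA pairs with MAX inside a Polycomb-type repressor complex. MLX is a second dimerization hub: it pairs with MLXIP (MondoA) or MLXIPL (ChREBP), which respond to phosphorylated sugars, and with some MXD proteins and MNT.

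Values are normalized counts, which are read counts divided by a library-wide scaling factor. Changes are differences of log2(normalized count + 1) with their standard error (SE), tested with limma across all tested genes, and a change was called when its Benjamini-Hochberg adjusted p was under 0.05. The libraries were shallow, with 875033 to 1473587 reads assigned to genes, so a normalized count of 10 rested on about as many reads. Protein-coding genes took 55.4% ± 3.94 (SD, n = 3) of the reads in full, 44.4% ± 2.51 in glucose-only, 51.1% ± 3.34 in glutamine-only and 47.3% ± 4.34 in deficient medium. Scaling every library to the same total shifted the median over tested genes by -0.39 in deficient, -0.21 in glucose-only and -0.12 in glutamine-only against full medium. Results of the members that this turns are given below. Changes of other genes named below are given with the deposited scaling, and some of their calls were lost with equal totals. None of 7 fibroblast, 8 blood cell and 5 adipocyte markers reached 10 in any library, while all 6 markers of the line's own state reached 10, with FN1 up to 1204. Of 6 endothelial and 8 luminal markers, 4 and 5 stayed under 10; the highest were PECAM1 at 19.7 and KRT18 at 396.0.

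MYC, the activating member (ENSG00000136997), rose on the loss of either nutrient and rose most on the loss of both. Its normalized counts were 42.3, 49.8 and 39.4 in full, 85.5, 79.6 and 95.2 in glucose-only, 71.3, 71.3 and 76.4 in glutamine-only, and 311, 318 and 329 in deficient medium. The 4 media did not overlap, and every deficient library stood above every other library by a wide margin. Against full medium MYC rose by 2.84 ± 0.12 in deficient (adjusted p = 1.35e-17), by 0.97 ± 0.12 in glucose-only (adjusted p = 4.71e-07) and by 0.73 ± 0.12 in glutamine-only medium (adjusted p = 3.8e-05). These comparisons share the full-medium libraries. From the deficient side, MYC was lower where either nutrient was present, with a change of -1.87 ± 0.12 in glucose-only (adjusted p = 3.43e-13) and -2.11 ± 0.12 in glutamine-only medium (adjusted p = 2.86e-14). Glutamine-only against glucose-only medium gave -0.24 with a 95% interval of -0.49 to 0.00 (adjusted p = 0.2), which was not called although the libraries did not overlap.

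The joint loss exceeded the sum of the single losses. The interaction term, deficient minus glucose-only minus glutamine-only plus full on the log2 scale, was 1.14 ± 0.17 for MYC (adjusted p = 8.96e-06). The lncRNA gene PVT1, the neighbour of MYC on its chromosome, was not a member and served for comparison. Its normalized counts were 51.6, 47.9 and 59.6 in full, 118, 108 and 99.9 in glucose-only, 83.9, 96.3 and 86.7 in glutamine-only, and 133, 136 and 137 in deficient medium. PVT1 also rose in every medium that lacked a nutrient, by 1.02 ± 0.12 in glucose-only (adjusted p = 2.58e-07), 0.74 ± 0.12 in glutamine-only (adjusted p = 3.87e-05) and 1.34 ± 0.12 in deficient medium (adjusted p = 3.09e-10). After single losses its changes lay close to those of MYC, whereas its change in deficient medium was smaller than that of MYC, and its interaction was -0.42 ± 0.17 (adjusted p = 0.0704). No test compared the 2 genes directly.

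**Figure D1:**
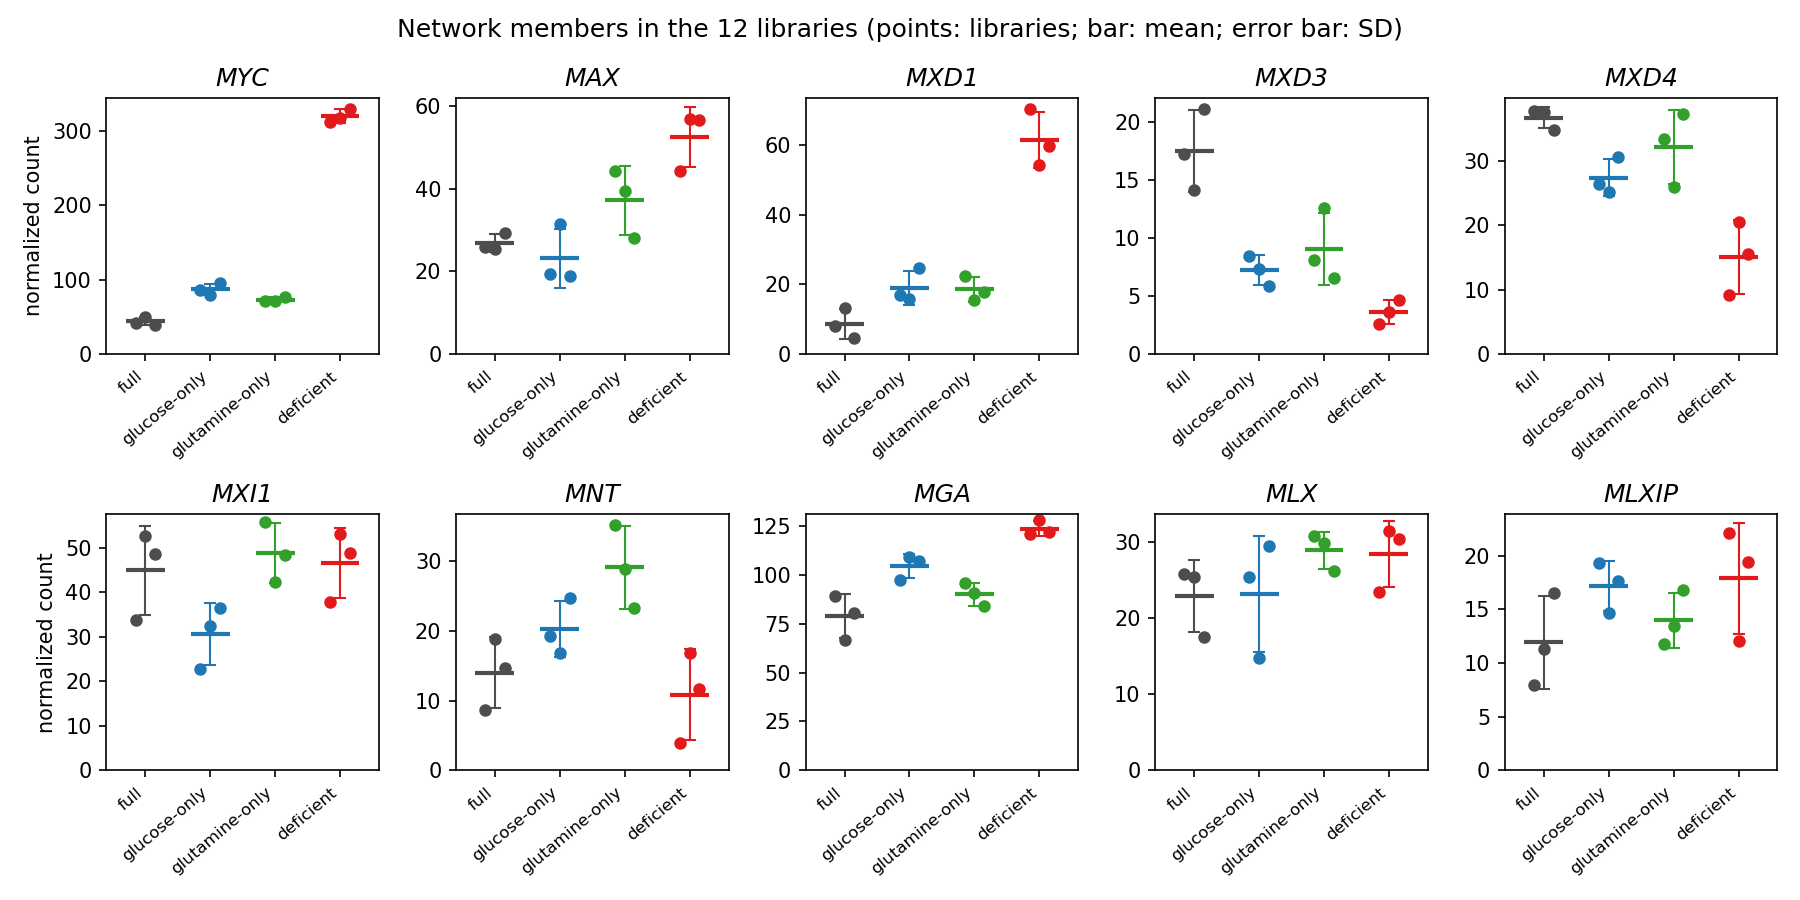
Normalized counts (vertical axis, from 0) of the 10 members in the 4 media, with 1 point per library, a bar at the mean and an error bar of 1 SD over 3 libraries. MYC runs from 39.4 to 49.8 in full and from 311 to 329 in deficient medium, MXD1 is likewise lowest in full and highest in deficient medium, and the libraries of MLXIP overlap in every pair of media.

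MAX, the shared partner of MYC, the MXD proteins, MNT and MGA (ENSG00000125952, GRCh38.p14 chromosome 14, 65006101 to 65102695, minus strand), rose with the loss of both nutrients, by much less than MYC. Its normalized counts were 25.8, 25.4 and 29.4 in full, 19.3, 31.4 and 18.8 in glucose-only, 44.2, 39.5 and 28.0 in glutamine-only, and 44.3, 56.8 and 56.7 in deficient medium. Every deficient library lay above every other library, though deficient replicate A and glutamine-only replicate A were nearly equal. MAX changed by 0.94 ± 0.21 in deficient against full medium (adjusted p = 0.000553), or by 0.55 with every library set to the same total (adjusted p = 0.0406), and by -1.18 ± 0.21 in glucose-only against deficient medium (adjusted p = 5.5e-05). Changes in glucose-only (-0.24, 95% interval -0.68 to 0.20) and glutamine-only medium (0.43, interval 0.00 to 0.87) against full were not called. MAX was higher in glutamine-only than in glucose-only medium by 0.67 ± 0.21 (adjusted p = 0.0328), but those libraries overlapped, and the adjusted p was 0.119 to 0.161 without glucose-only replicate A or C or glutamine-only replicate A or B, 0.186 by DESeq2 and 0.0552 without the low-count filter. Against deficient medium glutamine-only gave -0.50 ± 0.21 (adjusted p = 0.0592), and the MAX interaction was 0.74 ± 0.30 (adjusted p = 0.0677). Both were called without deficient replicate A, glucose-only replicate B or glutamine-only replicate A, at an adjusted p of 0.0397 to 0.0425 for the first and 0.0171 to 0.0488 for the second. The first was also called by edgeR (adjusted p = 0.0304).

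The 4 MXD genes encode the MAX-binding antagonists of MYC, and they did not move together. MXD1 rose, MXD3 and MXD4 fell, and MXI1 was not called between full and deficient medium, with a change of 0.06 in a 95% interval of -0.34 to 0.46. The sequences just before the RefSeq start sites of MXD1 and MXD4 are shown because these genes moved in opposite directions, and that of MNT, another antagonist, because its interaction of glucose and glutamine was called. Capitals mark the E-box CACGTG, which reads the same on both strands.
MXD1 (GRCh38.p14, chr2:69914859-69915108, plus strand): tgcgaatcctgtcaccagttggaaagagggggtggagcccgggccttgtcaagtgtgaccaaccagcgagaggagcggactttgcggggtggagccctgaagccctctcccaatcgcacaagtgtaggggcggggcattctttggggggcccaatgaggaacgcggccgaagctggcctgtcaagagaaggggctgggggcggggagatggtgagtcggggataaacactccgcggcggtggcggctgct
MXD4 (GRCh38.p14, chr4:2262110-2262359, minus strand): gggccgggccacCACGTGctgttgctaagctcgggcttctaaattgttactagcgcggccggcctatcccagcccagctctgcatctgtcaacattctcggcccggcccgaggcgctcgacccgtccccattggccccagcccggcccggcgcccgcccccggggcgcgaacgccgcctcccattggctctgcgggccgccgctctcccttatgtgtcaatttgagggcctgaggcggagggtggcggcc
MNT (GRCh38.p14, chr17:2401061-2401310, minus strand): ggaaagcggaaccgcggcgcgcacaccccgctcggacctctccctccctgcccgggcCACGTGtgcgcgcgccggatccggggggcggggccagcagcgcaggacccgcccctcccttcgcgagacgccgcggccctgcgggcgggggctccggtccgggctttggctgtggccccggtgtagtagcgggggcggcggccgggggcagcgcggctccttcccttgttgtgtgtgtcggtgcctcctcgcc

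From RefSeq 14 promoters of 9 members were used here, none of them of MYC, each from 250 bases before to 50 bases after a start site. The E-box was present in 3 of them, with its first base at -238 in MXD4, -193 in MNT and -50 in MLX, counting from 0 at the start site, against 7.26% of all 35116 promoters. The amino acid response element TGATGNAA, searched on both strands, was present in 0 of the 14 and in 3.62% of all promoters. The 2 motifs share no fixed overlap, and these are matches of letters in a window, not binding sites.

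MXD1, also called MAD1, is induced when many cell types leave the cell cycle. MXD1 (ENSG00000059728, chromosome 2, 69915109 to 69942945, plus strand) had normalized counts of 7.93, 13.2 and 4.59 in full, 16.9, 15.7 and 24.7 in glucose-only, 22.6, 15.4 and 17.7 in glutamine-only, and 70.3, 54.3 and 59.8 in deficient medium. The full libraries were the lowest and the deficient libraries the highest, with no overlap, and the single-nutrient media lay between and overlapped each other. Against full medium MXD1 rose by 2.80 ± 0.28 in deficient (adjusted p = 2.56e-09), 1.15 ± 0.28 in glucose-only (adjusted p = 0.00382) and 1.12 ± 0.28 in glutamine-only medium (adjusted p = 0.00449). Its interaction of 0.54 had an interval of -0.29 to 1.36 (adjusted p = 0.346), which includes both no interaction and the value of MYC. Glutamine-only against glucose-only medium gave -0.03 (interval -0.61 to 0.55).

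MXD4 behaved in the opposite way and only the joint loss was called. MXD4 (ENSG00000123933, chromosome 4, 2247432 to 2262109, minus strand) had normalized counts of 37.7, 37.6 and 34.9 in full, 26.5, 25.1 and 30.6 in glucose-only, 33.4, 26.0 and 37.3 in glutamine-only, and 9.11, 20.5 and 15.5 in deficient medium. All deficient libraries were below all others. MXD4 fell by 1.30 on the log2 scale in deficient against full medium (SE 0.24, adjusted p = 4.57e-05). The changes of -0.41 in glucose-only (interval -0.90 to 0.08) and -0.20 in glutamine-only medium (interval -0.69 to 0.29) were not called, the first although its libraries did not overlap those of full medium. MXD4 was higher in glucose-only (0.89 ± 0.24, adjusted p = 0.00359) and glutamine-only (1.10 ± 0.24, adjusted p = 0.00052) than in deficient medium. Without deficient replicate A the first of these was 0.59 (adjusted p = 0.0409). Its interaction of -0.69 ± 0.34 was not called (adjusted p = 0.133) but was without deficient replicate B (adjusted p = 0.0356).

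MXD3, the MXD member known for expression in proliferating S-phase cells, also fell. MXD3 (ENSG00000213347, chromosome 5, 177305499 to 177312752, minus strand) had normalized counts of 17.2, 14.1 and 21.1 in full, 8.43, 7.33 and 5.88 in glucose-only, 8.12, 12.5 and 6.52 in glutamine-only, and 2.60, 3.62 and 4.66 in deficient medium. Full libraries were highest and deficient libraries lowest without overlap. These rest on 64, 19, 29 and 11 reads per medium in that order, and the gene passed the low-count filter through the 3 full libraries and 1 other, so the filter itself favoured a difference. MXD3 fell by 2.00 in deficient (SE 0.37, adjusted p = 4.18e-05) and by 1.16 in glucose-only medium (SE 0.37, adjusted p = 0.0209), and the change of -0.90 in glutamine-only medium was not called (adjusted p = 0.0755). The glucose-only call was lost without glucose-only replicate C or full replicate A or C (adjusted p 0.0599 to 0.103) and by DESeq2 (0.0581), while edgeR called the glutamine-only change (0.0228). MXD3 was higher in glutamine-only than deficient medium by 1.10 (adjusted p = 0.017), a call lost without deficient replicate A or glutamine-only replicate B (0.0622 to 0.0999), by DESeq2 (0.0882) and with quantile normalization (0.134). MXD3 shares 926 exonic bases with RAB24 on its own strand and 1158 (22.5% of its exonic bases) with PRELID1 on the other, and the strand setting of the counting is not given in the sources used here.

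MXI1, an MXD member also induced by hypoxia-inducible factors in other systems, was lowest when glucose was the only nutrient. MXI1 (ENSG00000119950, chromosome 10, 110207605 to 110287365, plus strand) had normalized counts of 33.7, 52.6 and 48.6 in full, 22.9, 32.5 and 36.5 in glucose-only, 55.9, 42.4 and 48.5 in glutamine-only, and 37.7, 53.1 and 48.9 in deficient medium. The glucose-only libraries lay below all glutamine-only and deficient libraries and overlapped the full libraries. MXI1 was lower in glucose-only than in deficient medium (-0.60 ± 0.20, adjusted p = 0.0152) and higher in glutamine-only than in glucose-only medium (0.68 ± 0.20, adjusted p = 0.0201). The first call was lost without deficient replicate B or glucose-only replicate A (0.0688 to 0.116), the second without glucose-only replicate A or glutamine-only replicate A or C (0.058 to 0.14), and DESeq2 called neither (0.0889 and 0.124). Against full medium the change in glucose-only medium was -0.54 ± 0.20 (adjusted p = 0.0471). That call was lost when any of 8 libraries was left out (adjusted p 0.0506 to 0.245): deficient C, glucose-only A and B, all glutamine-only libraries, and full B and C. It was also lost by edgeR (0.0716) and DESeq2 (0.211). With every library scaled to the same total, the MXI1 change in deficient against full medium was -0.33, and that in glucose-only against deficient medium was -0.42 (adjusted p = 0.0995).

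The pool of MXD transcripts differed in makeup between the media. Summed over the 4 MXD genes, normalized counts were 96.5, 117 and 109 in full, 74.7, 80.7 and 97.6 in glucose-only, 120, 96.3 and 110 in glutamine-only, and 120, 132 and 129 in deficient medium. MXD1 made up 7.87% ± 3.51 (SD, n = 3) of MXD reads in full, 22.5% ± 2.91 in glucose-only, 16.97% ± 1.59 in glutamine-only and 48.8% ± 8.95 in deficient medium. MXD4 went the other way, from 34.3% ± 4.08 in full to 11.8% ± 4.00 in deficient medium, and MXD3 from 16.4% ± 3.87 to 2.85% ± 0.72. MXI1 held 41.4% ± 5.62 in full and 36.6% ± 4.57 in deficient medium, with overlapping libraries. These shares are ratios within a library, do not depend on its scaling, are not corrected for gene length and were not tested.

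**Figure D2:**
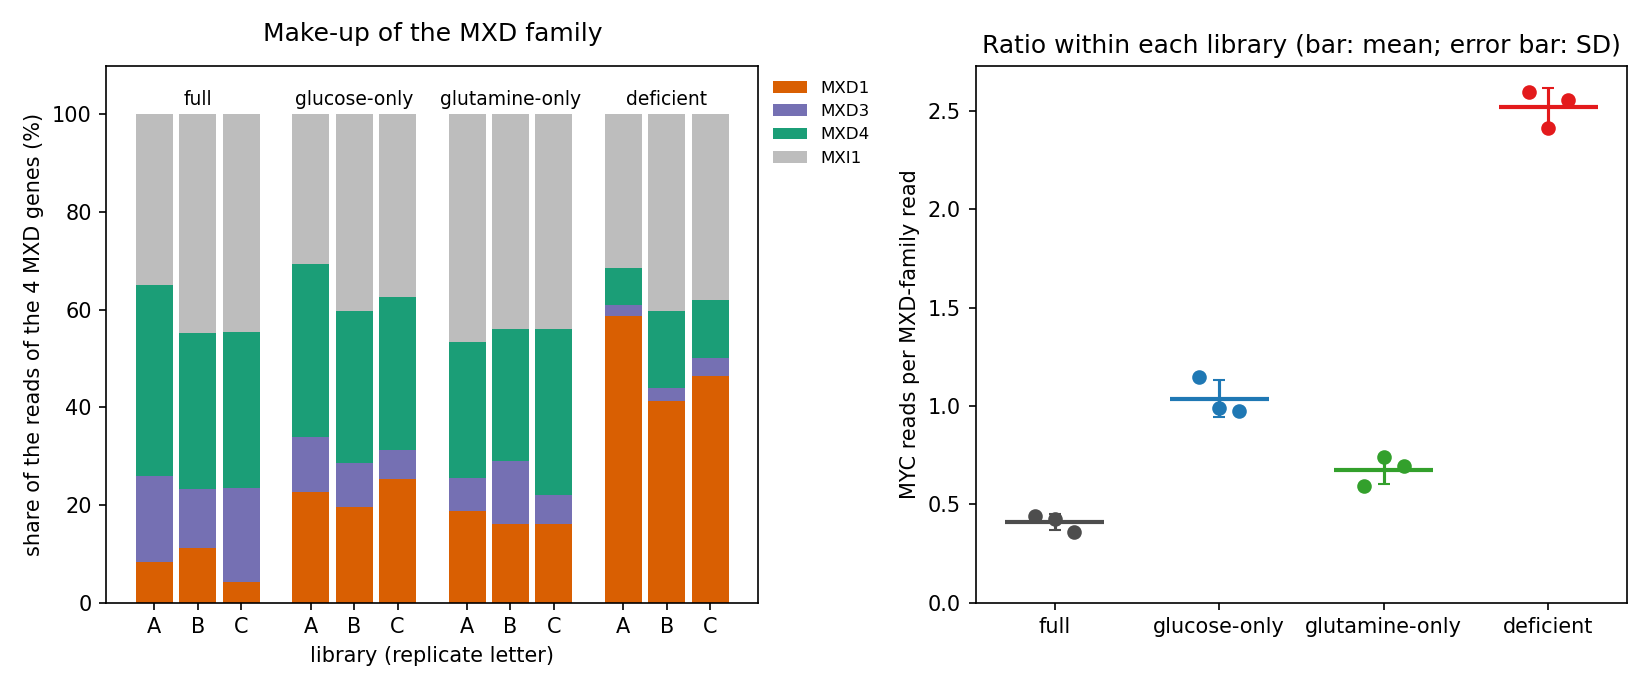
Left, the share of each MXD gene in the reads of the 4 MXD genes (percent) as 1 stacked bar per library; right, MYC reads per MXD read with 1 point per library, a bar at the mean and an error bar of 1 SD. The MXD1 share averages 7.87% in full and 48.8% in deficient medium, and the ratio runs from 0.361 to 0.438 in full and from 2.41 to 2.60 in deficient medium.

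The number of MYC reads for each MXD read was lowest in full and highest in deficient medium, whereas that for each MXD1 read overlapped between media. There were 0.438, 0.424 and 0.361 MYC reads per MXD read in full, 1.15, 0.987 and 0.976 in glucose-only, 0.594, 0.740 and 0.695 in glutamine-only, and 2.60, 2.41 and 2.55 in deficient medium. No 2 media overlapped in this ratio. With MNT and MGA counted among the antagonists too, the ratio was 0.219 ± 0.026 in full, 0.416 ± 0.030 in glucose-only, 0.322 ± 0.035 in glutamine-only and 1.22 ± 0.07 in deficient medium. MYC reads per MXD1 read, by contrast, were 5.91 ± 2.46 in full, 4.67 ± 0.70 in glucose-only, 4.03 ± 0.77 in glutamine-only and 5.26 ± 0.74 in deficient medium, with overlapping libraries. Per MAX read there were 1.65 ± 0.31 MYC reads in full, 4.01 ± 1.32 in glucose-only, 2.05 ± 0.60 in glutamine-only and 6.14 ± 0.77 in deficient medium. MYC alone held 14.3% ± 1.49 of the reads of the 10 members in full, 24.1% ± 1.09 in glucose-only, 19.2% ± 1.77 in glutamine-only and 47.0% ± 1.23 in deficient medium. The other 9 members summed to normalized counts of 262 ± 7.39 in full, 273 ± 20.4 in glucose-only, 308 ± 26.0 in glutamine-only and 360.0 ± 22.4 in deficient medium. RNA levels say nothing here of the proteins of this network.

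MNT, the broadly expressed antagonist that pairs with MAX or MLX, had its highest mean where glutamine was the only nutrient and its lowest where both were missing. MNT (ENSG00000070444, chromosome 17, 2384073 to 2401060, minus strand) had normalized counts of 8.60, 18.8 and 14.7 in full, 19.3, 16.8 and 24.7 in glucose-only, 35.2, 28.9 and 23.3 in glutamine-only, and 3.90, 16.9 and 11.6 in deficient medium. The glutamine-only libraries lay above all full and deficient libraries. MNT rose in glutamine-only against full medium by 1.05 ± 0.36 (adjusted p = 0.0323), a call lost without glutamine-only replicate A or B or full replicate A (0.0852 to 0.189). MNT was higher in glutamine-only (1.52 ± 0.36, adjusted p = 0.0011) and in glucose-only medium (1.02 ± 0.36, adjusted p = 0.0217) than in deficient medium. The second call was lost without deficient replicate A, which held 3 MNT reads, or glucose-only replicate C (adjusted p 0.091 to 0.24), and by DESeq2 (0.0851). Without deficient replicate A that change was 0.48, and the one in glutamine-only medium was 0.98 (adjusted p = 0.016). The MNT interaction was -2.07 ± 0.50 (adjusted p = 0.00277) and was called without each library in turn; without deficient replicate A it was -1.53 (adjusted p = 0.00885). Against full medium, glucose-only gave 0.55 (interval -0.18 to 1.27) and deficient -0.47 (interval -1.20 to 0.25), and neither was called. The deficient change was called without deficient replicate B (adjusted p = 0.0492) and with equal totals (-0.84, adjusted p = 0.0276). MNT shares 1065 exonic bases (12.2%) with the antisense gene AC006435.1, which was listed at 0 in every library.

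MGA, the scaffold of the MAX-containing Polycomb complex, had many reads and a small change. MGA (ENSG00000174197, chromosome 15, 41621224 to 41769940, plus strand) had normalized counts of 89.3, 66.7 and 80.7 in full, 97.6, 109 and 107 in glucose-only, 95.6, 90.5 and 83.9 in glutamine-only, and 121, 128 and 122 in deficient medium. The deficient libraries were above all others, and the glucose-only libraries were above all full libraries. MGA rose by 0.65 ± 0.12 in deficient (adjusted p = 5.96e-05) and by 0.41 ± 0.12 in glucose-only medium (adjusted p = 0.0152), and was lower in glutamine-only than in deficient medium (-0.46 ± 0.12, adjusted p = 0.00377). These 3 calls depended on the scaling: with every library set to the same total the changes were 0.25 (adjusted p = 0.162), 0.19 (adjusted p = 0.374) and -0.18 (adjusted p = 0.379). The glucose-only call was also lost without glucose-only replicate B or full replicate B (0.0557 to 0.117) and by DESeq2 (0.103). As a share of the reads of the 10 members, MGA was 25.9% ± 4.48 in full and 18.2% ± 0.67 in deficient medium. That sum includes MYC, whose share was 14.3% in full and 47.0% in deficient medium, so the lower share does not mean that MGA itself fell.

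MLX, the second hub, and MLXIP, its glucose-sensing partner, showed no called change in any of the 6 comparisons. MLX (ENSG00000108788, chromosome 17, 42567100 to 42573203, plus strand) had normalized counts of 25.8, 25.4 and 17.4 in full, 25.3, 14.7 and 29.4 in glucose-only, 30.7, 29.9 and 26.1 in glutamine-only, and 23.4, 31.4 and 30.3 in deficient medium. MLXIP (ENSG00000175727, chromosome 12, 122078756 to 122147344, plus strand) had 7.93, 11.3 and 16.5 in full, 19.3, 14.7 and 17.6 in glucose-only, 11.7, 13.5 and 16.8 in glutamine-only, and 22.1, 12.1 and 19.4 in deficient medium. Libraries of MLXIP overlapped in every comparison, and those of MLX in all but glutamine-only against full medium. In deficient against full medium the interval was -0.19 to 0.81 for MLX and -0.06 to 1.19 for MLXIP. For MLXIP that comparison was called without deficient replicate B or full replicate C (adjusted p 0.0416 to 0.0481). MLX shares 770 exonic bases (18.1%) with PSMC3IP on the opposite strand.

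MLXIPL (ChREBP, ENSG00000009950), the other sugar-responsive partner of MLX, is a gene singled out after its values were seen. It fell short of the low-count filter, with 2 libraries at 10 or more. Its normalized counts were 4.63, 4.70 and 1.83 in full, 8.43, 4.19 and 7.05 in glucose-only, 20.7, 8.67 and 19.6 in glutamine-only, and 2.60, 3.62 and 1.55 in deficient medium. All 3 glutamine-only libraries were above all others, on 53 reads in that medium against 14, 17 and 7 in full, glucose-only and deficient medium. These values are a description, and MLXIPL was not part of the main fit. It was fitted without the filter, but a p-value for a gene picked by its values cannot support the difference.

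Per kilobase of exon (GENCODE 29 exon union), which allows genes to be compared in level, MYC was the most abundant member in every medium. It stood at 14.6 normalized counts per kilobase in full and 106 in deficient medium. MXI1 was next in full medium at 9.77, followed by MAX at 6.06, MLX at 5.37, MXD4 at 5.20, MGA at 4.47, MXD3 at 3.39, MNT at 1.61, MXD1 at 1.35 and MLXIP at 0.856. In deficient medium MAX followed MYC at 11.9, then MXI1 at 10.1, MXD1 at 9.68, MGA at 7.01, MLX at 6.66, MXD4 at 2.13, MLXIP at 1.29, MNT at 1.24 and MXD3 at 0.704. MXD1 thus moved from rank 9 to rank 4, and MXD4 from rank 5 to rank 7. In full medium neighbours in this order overlapped in their libraries except MYC and MXI1, MXI1 and MAX, and MXD3 and MNT. In deficient medium they overlapped except MYC and MAX, MXD1 and MGA, and MLX and MXD4. Levels per kilobase were not tested between genes, and the exon union overstates the length of genes with many alternative exons.

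Counting the members, 6 of 10 were called in deficient against full medium, 4 higher (MYC, MAX, MXD1 and MGA) and 2 lower (MXD3 and MXD4), where 51.8% of all tested genes were called. In glucose-only against full medium 5 were called, 3 higher (MYC, MXD1 and MGA) and 2 lower (MXD3 and MXI1), against 22.9% of all genes. In glutamine-only against full medium 3 were called, all higher (MYC, MXD1 and MNT), against 22.5%. Glucose-only against deficient medium gave 6 calls, with MXD4 and MNT higher and MYC, MAX, MXD1 and MXI1 lower, against 43.2%. Glutamine-only against deficient medium gave 6, with MXD3, MXD4 and MNT higher and MYC, MXD1 and MGA lower, against 41.5%. Glutamine-only against glucose-only medium gave 2 (MAX and MXI1, both higher), against 13.3%, and the interaction 2 (MYC higher, MNT lower), against 26.5%. The background shares are wide, and these counts say nothing of the size of a change. With equal totals the split of higher and lower members was 3 and 3 in deficient against full medium, where MGA dropped out, MNT was called lower and 12.6% of all genes were called higher and 40.7% lower. It was 3 and 3 in glucose-only against deficient medium, where MXI1 dropped out, MXD3 was called higher and 26.3% of all genes were called higher and 15.1% lower.

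**Figure D3:**
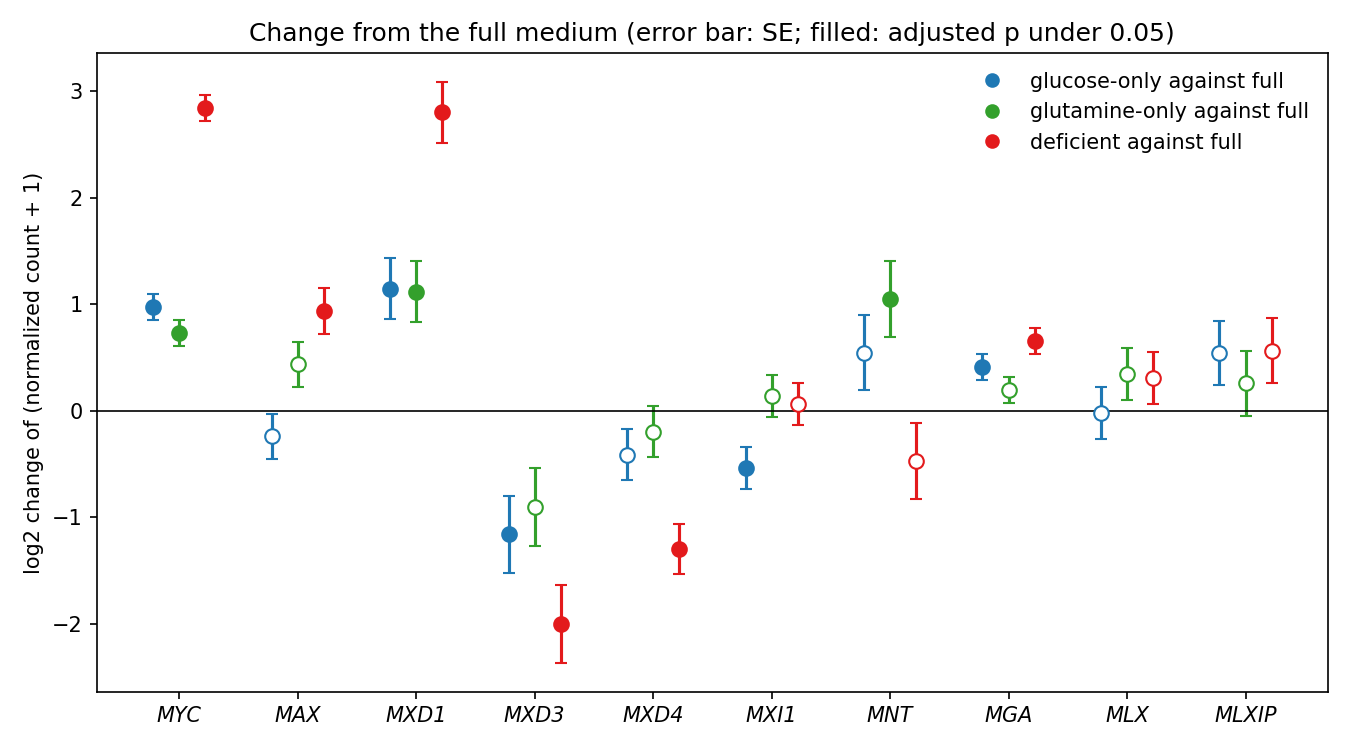
Change of each member against full medium on the log2(normalized count + 1) scale, with the SE as error bar and filled symbols for an adjusted p under 0.05. MYC and MXD1 stand at 2.84 and 2.80 in deficient medium, MXD3 at -2.00 and MXD4 at -1.30. The glucose-only and glutamine-only symbols of these genes lie closer to 0. Not all members share this: in glucose-only, glutamine-only and deficient medium MNT stands at 0.55, 1.05 and -0.47, and MXI1 at -0.54, 0.13 and 0.06.

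Genes with profiles most like each member were sought among 1205 tested genes with a mean normalized count of at least 100, as the 3 highest Pearson correlations over the 12 libraries. The libraries share 4 media, so any gene with the same order of media scores high, and these are descriptions. For MYC they were EIF3A (r = 0.99), a subunit of translation initiation factor 3, CCN1 (r = 0.99), a matricellular growth factor-inducible protein, and MMP1 (r = 0.98), an interstitial collagenase. MMP1 averaged 36.4 in full, 156 in glucose-only, 91.7 in glutamine-only and 704 in deficient medium. For MAX they were 3 ribosomal protein genes, RPL39, RPL8 and RPL15 (r = 0.91, 0.90 and 0.90). For MXD1 they were MT-RNR2, a mitochondrial ribosomal RNA, EIF3I and SH3KBP1 (each r = 0.95). For MXD3 they were ASPM, a spindle pole protein of dividing cells, ADGRF5 and H2AZ2 (r = 0.93, 0.93 and 0.93), and ASPM averaged 302 in full and 37.0 in deficient medium. For MXD4 they were PARP4 (r = 0.97), CDC42BPA and MAP4 (each r = 0.93), and for MGA CAPRIN2 (r = 0.94), MIR100HG (r = 0.93) and SRRM2 (r = 0.91). The closest genes were less like MXI1 (S100A11, DYNLL1 and ARHGAP5, r = 0.83, 0.83 and 0.82), MNT (NKTR, SNX19 and BPTF, r = 0.83, 0.74 and 0.74), MLXIP (RNU1-1, PRP4K and MALAT1, r = 0.80, 0.79 and 0.76) and MLX (MAN1A2, SNORA49 and SSR4, r = 0.72, 0.71 and 0.69).

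Known targets of MYC in ribosome biogenesis were mostly higher in deficient medium. Of 26 tested genes of that list, 22 rose and 0 fell in deficient against full medium, with a median change of 0.99 beside 0.01 over all genes, where 26.3% of all genes were called higher. PPAN, 1 of the 26 but not called, passed the filter through the 3 deficient libraries alone. POLR3G and RRS1, both called higher, also needed these, beside 1 and 2 glucose-only libraries, so the filter itself favoured a difference. The largest changes were in RRP12 (2.11 ± 0.18) and WDR43 (1.83 ± 0.16), ribosomal RNA processing factors, and DDX21 (1.88 ± 0.10), a nucleolar helicase. RRP12 was at 19.2, 15.04 and 22.02 in full and 82.0, 84.5 and 83.9 in deficient medium, without overlap. With single losses 6 of 26 rose and 0 fell in glucose-only (median 0.31) and again 6 and 0 in glutamine-only medium (median 0.14), where 9.44% and 10.8% of all genes were called higher. RRP12 (1.28 and 1.09), MYBBP1A (1.14 and 0.72) and WDR43 (0.71 and 0.70) led in glucose-only and glutamine-only medium. With equal totals the counts were 16, 3 and 3 in deficient, glucose-only and glutamine-only medium, again with 0 lower, where 12.6%, 4.27% and 6.79% of all genes were called higher.

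MYC targets in metabolism and translation split in direction, and the split differed among the media. Of 21 tested, 11 rose and 3 fell in deficient, 5 and 5 in glucose-only, and 6 and 5 in glutamine-only medium, with medians of 0.50, 0.06 and 0.03. In these media 26.3%, 9.44% and 10.8% of all genes were called higher and 25.5%, 13.5% and 11.6% lower. ODC1, the first enzyme of polyamine synthesis and a classical MYC target, was at 27.1, 37.6 and 33.9 in full, 85.5, 79.6 and 69.4 in glucose-only, 46.0, 49.1 and 50.3 in glutamine-only, and 164, 167 and 155 in deficient medium. Its media did not overlap and their order was that of MYC. ODC1 rose by 2.28 ± 0.14, 1.23 ± 0.14 and 0.56 ± 0.14 in deficient, glucose-only and glutamine-only medium. The mitochondrial chaperonin genes HSPD1 (2.15 ± 0.11) and HSPE1 (1.94 ± 0.16) rose in deficient medium. SLC1A5 and SLC7A5, amino acid transporters, led the rises after single losses, at 1.54 ± 0.13 and 1.36 ± 0.15 in glucose-only and 1.67 ± 0.13 and 1.49 ± 0.15 in glutamine-only medium. SHMT2, a mitochondrial serine hydroxymethyltransferase, rose by 1.47 ± 0.12 in glutamine-only medium. Unlike MYC, SLC1A5, SLC7A5 and SHMT2 rose less in deficient medium, by 1.18, 1.02 and 0.76. ENO1, a glycolytic enzyme, went against MYC, with changes of -1.55, -1.32 and -0.60 (SE 0.09 each) in deficient, glucose-only and glutamine-only medium. PKM, another glycolytic enzyme, also went against MYC, with changes of -1.03, -0.81 and -0.48 in the same order of media. With equal totals 9 were higher and 4 lower in deficient, 4 and 9 in glucose-only, and 4 and 5 in glutamine-only medium, with medians of 0.11, -0.16 and -0.073, where 12.6%, 4.27% and 6.79% of all genes were called higher and 40.7%, 23.2% and 14.7% lower.

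Cell-cycle targets of MYC and 12 general proliferation genes fell or split while MYC rose. All 12 proliferation genes fell in deficient, 9 of 12 in glucose-only and 11 of 12 in glutamine-only medium, with 0 higher and medians of -2.23, -1.12 and -1.64, where 25.5%, 13.5% and 11.6% of all genes were called lower. RRM2 (-3.57 ± 0.20), a ribonucleotide reductase subunit, TOP2A (-3.23 ± 0.10), a topoisomerase, and CCNA2 (-2.72 ± 0.27), cyclin A, had the largest changes in deficient medium. PLK1, a mitotic kinase, had the largest change in glucose-only (-1.73 ± 0.34), and CCNA2 in glutamine-only medium (-2.46 ± 0.27). Among the 12, TYMS passed the filter through the 3 full libraries and 1 glucose-only library, so the filter itself favoured a difference. MCM2 passed through full and glucose-only libraries alone. Of 11 cell-cycle MYC targets, 4 rose and 3 fell in deficient, 1 and 1 in glucose-only, and 2 and 5 in glutamine-only medium (medians 0.17, -0.07 and -0.46; -0.22 in deficient medium with equal totals), beside 26.3%, 9.44% and 10.8% of all genes called higher. ID2, an inhibitor of differentiation factors, rose by 3.51 ± 0.46 in deficient and 2.50 ± 0.46 in glutamine-only medium, and passed the filter through libraries of these media alone. E2F1, an S-phase transcription factor, fell by 1.59 (SE 0.27) in deficient medium, and CKS2, a CDK-binding subunit, changed by 1.39 ± 0.14 in deficient and by -1.27 ± 0.14 in glucose-only medium. CDC25A, a CDK-activating phosphatase, and MCM4, a replicative helicase subunit, fell by 1.30 (SE 0.40) and 1.23 (SE 0.17) in glutamine-only medium. In a bulk library, fewer cells in cycle and less RNA of these genes per cell cannot be told apart.

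Genes that MYC is known to repress did not fall as a group in deficient medium. Of 9 tested, 6 rose and 2 fell in deficient medium (median 0.92), 0 and 3 in glucose-only (median -0.06) and 3 and 4 in glutamine-only medium (median 0.06; -0.06 with equal totals), where 26.3%, 9.44% and 10.8% of all genes were called higher and 25.5%, 13.5% and 11.6% lower. GADD45G (3.94 ± 0.46) and GADD45A (2.68 ± 0.19), stress-induced growth arrest genes, and FTH1 (2.38 ± 0.15), the ferritin heavy chain, led in deficient medium. GADD45G passed the filter through the 3 deficient libraries alone, the medium where it was highest, so the filter itself favoured a difference. GADD45G (2.08 ± 0.46) and FTH1 (1.10 ± 0.15) also rose in glutamine-only medium. NDRG1, a stress- and differentiation-linked gene, fell by 2.17 (SE 0.12) and CDKN1A, the CDK inhibitor p21, by 0.68 (SE 0.13) in glucose-only medium, while CDKN1A rose by 0.92 ± 0.13 in deficient medium. CEBPD, a C/EBP transcription factor, fell by 1.85 (SE 0.39) in glucose-only and 1.87 (SE 0.39) in glutamine-only medium, and passed the filter through the 3 full libraries and 1 deficient library. With equal totals 5 rose and 3 fell in deficient, 0 and 3 in glucose-only, and 2 and 4 in glutamine-only medium, where 12.6%, 4.27% and 6.79% of all genes were called higher and 40.7%, 23.2% and 14.7% lower. Only 9 of the 16 genes listed passed the filter.

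TXNIP, an inhibitor of glucose uptake and the best known target of the MLX and MLXIP pair, was high in the media with glucose and low in those without. TXNIP was at 116, 133 and 120 in full, 185, 195 and 174 in glucose-only, 8.12, 12.5 and 7.46 in glutamine-only, and 15.6, 16.9 and 14.8 in deficient medium. Every library with glucose was above every library without it. TXNIP fell by 3.61 in glutamine-only (SE 0.17, adjusted p = 1.57e-15) and by 2.89 in deficient medium (SE 0.17, adjusted p = 3.47e-14), and rose by 0.58 in glucose-only medium (SE 0.17, adjusted p = 0.0149). With equal totals the rise in glucose-only medium was not called. Of 11 tested with TXNIP, 6 rose and 3 fell in deficient, 1 and 5 in glucose-only, and 2 and 5 in glutamine-only medium (medians 0.67, -0.22 and -0.20), or 4 and 4, 0 and 6, and 2 and 5 with equal totals. Of all genes 26.3%, 9.44% and 10.8% were called higher and 25.5%, 13.5% and 11.6% lower, or 12.6%, 4.27% and 6.79% and 40.7%, 23.2% and 14.7% with equal totals. KLF11 (1.70 ± 0.36) and KLF10 (1.45 ± 0.13), Kruppel-like factors, rose in deficient medium. KLF11 passed the filter through the 3 deficient libraries and 1 other, and KLF10 fell by 0.60 (SE 0.13) in glutamine-only medium. BHLHE40 (-1.70 ± 0.19), a clock-linked repressor, FASN (-1.28 ± 0.10), fatty acid synthase, and PFKFB3 (-1.19 ± 0.18), a glycolytic regulator, fell in glucose-only medium, and G0S2 (-0.84 ± 0.17), a lipolysis inhibitor, fell and TKT (0.80 ± 0.10), transketolase, rose in glutamine-only medium. In deficient medium BHLHE40 rose by 0.67 ± 0.19 and FASN fell by 0.97 (SE 0.10), and in glutamine-only medium FASN rose by 0.54 ± 0.10. ARRDC4, the paralog of TXNIP, fell short of the filter, with a mean of 0.882 in full, 5.30 in glucose-only and 1.74 in deficient medium, and was listed at 0 in glutamine-only medium.

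**Figure D4:**
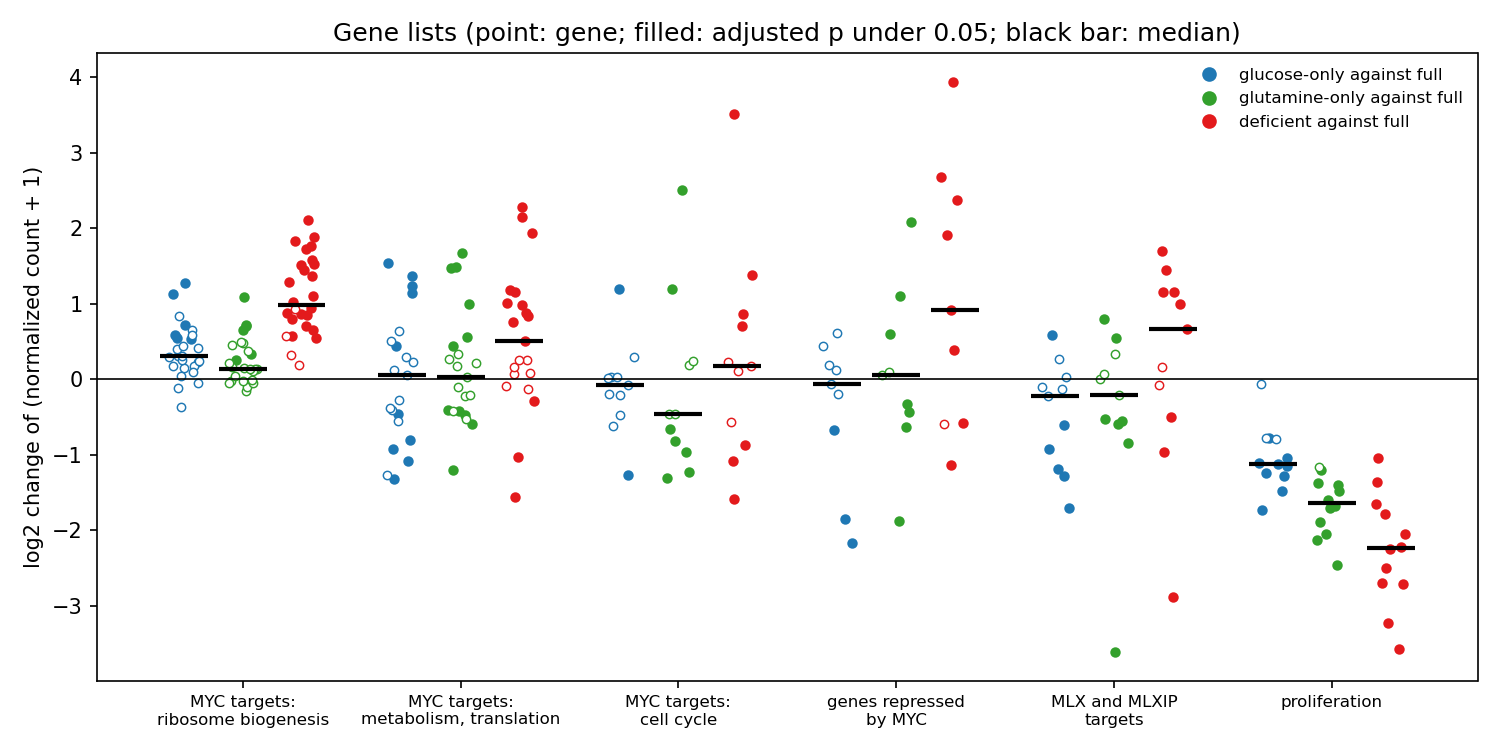
Change of each tested gene of 6 lists against full medium on the log2(normalized count + 1) scale, with 1 point per gene, filled where the adjusted p is under 0.05, and a black bar at the median of the list. The median of the ribosome biogenesis targets is 0.99 in deficient medium, and that of the proliferation genes is -2.23.

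Genes that set the stability of the MYC protein changed in both directions. Of 16 tested, 6 rose and 8 fell in deficient, 1 and 3 in glucose-only, and 3 and 5 in glutamine-only medium (medians -0.31, -0.28 and -0.37). In these media 26.3%, 9.44% and 10.8% of all genes were called higher and 25.5%, 13.5% and 11.6% lower. With equal totals 4 rose and 8 fell in deficient (median -0.70), 1 and 6 in glucose-only, and 1 and 8 in glutamine-only medium, where 12.6%, 4.27% and 6.79% of all genes were called higher and 40.7%, 23.2% and 14.7% lower. AURKA, a mitotic kinase that also stabilizes MYC-family proteins, fell by 2.63 (SE 0.28), 1.52 and 2.02 in deficient, glucose-only and glutamine-only medium. SKP2, an F-box protein that ubiquitinates MYC, fell by 1.62 (SE 0.33) in deficient and 1.15 in glutamine-only medium. CIP2A, an inhibitor of the phosphatase that destabilizes MYC, fell by 1.34 (SE 0.19) in glucose-only and 1.51 in glutamine-only medium. In deficient medium CIP2A changed by -1.47, also called. USP36, a nucleolar deubiquitinase of MYC, rose by 2.13 ± 0.15 in deficient, 1.11 ± 0.15 in glucose-only and 0.78 in glutamine-only medium. AURKA and SKP2 are cell-cycle genes as well, and the part of the falling proliferation genes in their values was not tested.

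Cofactor lists showed smaller changes. Of 18 chromatin cofactors of MYC, 6 rose and 2 fell in deficient, 3 and 2 in glucose-only, and 3 and 0 in glutamine-only medium (medians 0.19, -0.03 and -0.02), where 26.3%, 9.44% and 10.8% of all genes were called higher and 25.5%, 13.5% and 11.6% lower. KAT5 (1.10 ± 0.44) and KAT2A (0.79 ± 0.21), histone acetyltransferases, were among those that rose in deficient medium, KAT5 having passed the filter through the 3 deficient libraries alone. In glucose-only medium ACTL6A, a chromatin remodeller subunit, changed by -0.61 ± 0.20, KAT2A by 0.61 ± 0.21 and EP400, another remodeller, by 0.57 ± 0.11. In glutamine-only medium KAT2A (0.62 ± 0.21) and EP400 (0.37 ± 0.11) were among those that rose. With equal totals 1 rose and 6 fell in deficient medium, 0 and 3 in glucose-only, and 0 and 0 in glutamine-only medium (medians -0.20, -0.25 and -0.13), where 12.6%, 4.27% and 6.79% of all genes were called higher and 40.7%, 23.2% and 14.7% lower.

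Of 16 corepressor genes, through which MXD proteins and MNT act, 6 rose and 3 fell in deficient, 1 and 4 in glucose-only, and 0 and 4 in glutamine-only medium (medians 0.11, -0.18 and -0.15), where 26.3%, 9.44% and 10.8% of all genes were called higher and 25.5%, 13.5% and 11.6% lower. With equal totals 2 were higher and 7 lower in deficient (median -0.29), 0 and 7 in glucose-only, and 0 and 4 in glutamine-only medium, beside 12.6%, 4.27% and 6.79% of all genes higher and 40.7%, 23.2% and 14.7% lower. ING1 (2.13 ± 0.29), a SIN3 complex subunit that reads histone methylation, and ARID4B (0.99 ± 0.12) rose in deficient medium, and RBBP7, a histone chaperone, fell by 1.21 (SE 0.17). SAP30 (-1.10 ± 0.29), RBBP7 (-0.78 ± 0.17) and NCOR1 (0.49 ± 0.11) led in glucose-only medium, and SIN3A (-0.69 ± 0.18), the scaffold, and RBBP7 (-0.57 ± 0.17) were among those that fell in glutamine-only medium. Of 7 tested partners of MGA in its Polycomb complex, 1 rose and 2 fell in deficient, 0 and 3 in glucose-only, and 0 and 2 in glutamine-only medium (medians 0.18, 0.03 and -0.14; -0.18 and -0.16 in deficient and glucose-only medium at equal totals, with 0 higher and 2 and 3 lower), beside the same shares of all genes. TFDP1, the E2F partner, fell by 1.47 (SE 0.16), 0.58 (SE 0.16) and 0.82 (SE 0.16), and CBX3, a heterochromatin protein, by 0.58, 0.53 and 0.50 (SE 0.12 each) in deficient, glucose-only and glutamine-only medium. YAF2 (0.58 ± 0.23) rose in deficient and RNF2 (-0.79 ± 0.26) fell in glucose-only medium.

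Of 9 further E-box binding relatives of the network, 4 were tested. In deficient against full medium 2 were called, beside 51.8% of all genes. MITF, a regulator of lysosomal genes among others, rose by 1.87 ± 0.29 (means 12.6 and 49.4), and USF1 fell by 0.97 (SE 0.29; means 19.3 and 9.33). None of the 4 was called in glucose-only or glutamine-only against full medium. Glucose-only and glutamine-only against deficient medium gave 1 call each, lower, beside 23.2% and 21.6% of all genes called lower. The interaction gave 1 call, higher, beside 15.5%. MYCN and TFE3 were listed at 0 in every library. So were SMARCB1, RING1 and SLC16A1, among others of the lists above, while LDHA reached at most 1.835 and FBL at most 3.73. Whether such values reflect absent RNA or the way reads were counted was not tested.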

How the data were processed

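RNA-seq was made from MDA-MB-231 cells in 4 media with 3 libraries each. The submitters' processing notes name FastQC, HISAT2, Subread and DESeq2 and the build GRCh38.p14; versions, annotation release and strand setting are not given in the sources used here. The deposited signal values are gene counts divided by a size factor per library: 100% of values were whole multiples of 1 read within 0.01 reads, and the deposited factors equalled recomputed DESeq2 factors.

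Here log2(normalized count + 1) was fitted with limma 3.58.1 (trend; R 4.3.3) over all 12 libraries with 1 mean per medium, for 9270 genes at 10 or more in at least 3 libraries, with Benjamini-Hochberg adjustment over all of them. Of 63187 genes, 32493 had any read. The fit was checked on simulated data. Alternatives were pseudocounts of 0.5 and 8, no filter, equal totals, quantile normalization, a replicate block, the compared media alone, edgeR 4.0.16 and DESeq2 1.42.0 on the recovered reads, and each library left out. Named were all members, up to 3 called genes per list and comparison with the largest change, and the 3 genes most like each member; some genes under this rule are not reported here. Members and lists were chosen with earlier results of these data known. Positions and promoters come from RefSeq (GRCh38.p14), and exon overlaps and lengths from GENCODE 29.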

Additional observations from a re-analysis of the deposited data

Results flagged for a closer look

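For 2 members the effect of losing one nutrient differed with the presence of the other, by the interaction test of limma (Benjamini-Hochberg adjustment over all genes). For MYC the interaction was 1.14 ± 0.17 (adjusted p = 8.96e-06), with glucose-only, glutamine-only and deficient medium at 0.97, 0.73 and 2.84 against full. For MNT it was -2.07 ± 0.50 (adjusted p = 0.00277), with the same media at 0.55, 1.05 and -0.47 against full, and -1.53 without deficient replicate A. Over all tested genes 26.5% had a called interaction.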

How the results depend on the processing

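Over the 70 member changes and the alternatives that keep all libraries, 583 values kept direction and call, 20 lost the call, 9 gained it and 8 reversed, all 8 from changes that were not called. With every library set to the same total, the change in deficient against full medium was -0.33 for MXI1 and -0.077 for MLX, MLXIP in glucose-only against deficient medium was 0.15, MXD1 in glutamine-only against glucose-only medium was 0.067 and the MGA interaction was -0.018 (-0.26 with quantile normalization). DESeq2 gave 0.012 for MLX in glucose-only against full medium and -0.018 for the MXD3 interaction. The cause was not tested. The number of members called in glucose-only against full medium was 3 without the filter and 2 with DESeq2, beside 5, where these called 5.42% and 13.5% of all genes. In glutamine-only against glucose-only medium it was 1 and 0, beside 2, where they called 3.12% and 6.52% of all genes. There DESeq2 had 2 members at an unadjusted p under 0.05, and edgeR called 2. Over MYC, MAX and the 4 MXD genes alone, the MYC share was 24.6%, 44.7%, 33.4% and 64.1% in full, glucose-only, glutamine-only and deficient medium, a larger share by construction of the smaller sum.

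Leaving out 1 library gave 3 to 5 members called in glucose-only against full medium and 0 to 2 in glutamine-only against glucose-only medium. Of 840 member values, 770 kept direction and call, 29 lost the call, 10 gained it and 31 reversed. The ranges of changes that reversed were -0.13 to 0.20 for MXI1 and -0.87 to 0.065 for MNT in deficient against full medium, -0.21 to 0.27 for MLX in glucose-only and -0.056 to 0.26 for MXI1 in glutamine-only against full medium. Against deficient medium they were -0.26 to 0.15 for MLXIP in glucose-only, -0.067 to 0.17 for MXI1 and -0.095 to 0.11 for MLX in glutamine-only medium. MXD1 in glutamine-only against glucose-only medium ran from -0.17 to 0.16. Interactions ran from -0.12 to 0.30 for MXD3, -0.30 to 0.18 for MLX, -0.48 to 0.0076 for MLXIP and -0.047 to 0.16 for MGA.

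With the replicate letter as a block, MYC in deficient against full medium was again 2.84 and 0 of 70 member calls changed. Any pairing of the libraries by letter was weak: 0 of 18 same-letter pairs had deviations correlated over 0.1 (-0.03 to 0.07). Their median was 0.010, beside -0.0055 for other pairs, and 9 of 12 libraries correlated best with their own letter. Whether the letters mark pairs is not settled by these values. A pseudocount of 8 lost no call. It added those of MXD3 in glutamine-only against full (adjusted p = 0.0276) and MAX in glutamine-only against deficient medium (adjusted p = 0.0447). For MXD3 it gave -1.13 and -0.74 in deficient and glucose-only against full medium and 0.54 in glutamine-only against deficient medium. For MNT it gave 0.64 in glucose-only against deficient medium, and for MXD1 0.73 and 0.71 in glucose-only and glutamine-only against full medium. By construction a larger pseudocount shrinks the changes of genes with few reads.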
